A study of Homo sapiens with 32 samples.

Results

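NEAT1 and the genes of the paraspeckle proteins PSPC1, NONO and SFPQ were followed in HEK293 cells, a human embryonic kidney line, incubated with 4-thiouracil for 0, 5, 15 or 30 min. The members were taken by gene symbol, and all 4 were found among the 32738 entries of the count table, each on 1 entry. Each time had 2 biological replicates, called cultures here, and each culture is the sum of 4 libraries, from 2 cDNA preparations of 2 libraries each. All groups are the same cell line with no other labelled treatment, the molecule is given as poly(A) RNA, and the time is the only labelled difference between groups. The sample titles begin with TTSeq, but no label states what the 0 min cells received or whether tagged RNA was enriched. Rises and falls from 0 min below are differences between libraries, and are not shown to be changes of RNA in the cells.

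Paraspeckles are nuclear bodies built on NEAT1, a long noncoding RNA made as a short polyadenylated form and a long form from the same start site. The long form is the scaffold, and NONO, SFPQ and PSPC1, which form dimers with each other, bind along it. NONO and SFPQ are needed for the bodies to form, whereas PSPC1 is not. 4-thiouracil is a uracil analogue used to tag RNA made during the incubation. In bulk samples a change in the number of expressing cells and in RNA per cell cannot be told apart. Protein was not measured, and all levels below are of RNA.

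The promoters of PSPC1 and NONO are shown because only these 2 of the 4 members had an entry among the promoters used here. NEAT1 and SFPQ had none. Each window holds the 250 bases before the gene's start in RefSeq, build GRCh38.p14. The PSPC1 window is chr13:19782946-19783195 on the minus strand and the NONO window is chrX:71283385-71283634 on the plus strand. Capitals mark matches, on either strand, to the motifs given after the sequences.
PSPC1: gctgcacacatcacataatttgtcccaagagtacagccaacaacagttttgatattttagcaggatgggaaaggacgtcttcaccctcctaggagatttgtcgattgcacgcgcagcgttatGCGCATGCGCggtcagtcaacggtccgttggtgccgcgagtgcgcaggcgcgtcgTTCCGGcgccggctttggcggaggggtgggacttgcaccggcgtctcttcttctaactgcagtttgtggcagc
NONO: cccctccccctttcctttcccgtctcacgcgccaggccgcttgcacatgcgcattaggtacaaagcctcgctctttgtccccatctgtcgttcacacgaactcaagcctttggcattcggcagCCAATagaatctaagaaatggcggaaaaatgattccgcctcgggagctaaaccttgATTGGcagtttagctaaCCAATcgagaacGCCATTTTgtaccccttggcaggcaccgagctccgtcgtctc
In PSPC1 the letters GCATGCGC, the core of the NRF1 motif, were matched on both strands at overlapping places, 128 and 126 bases before the start. They are present in 2.6% of the 35116 RefSeq promoter windows of this length. The ETS core CCGGAA was matched once in PSPC1, on the minus strand 73 bases before the start, and is in 14.5% of windows. The NONO window held CCAAT, the NF-Y box, at 3 places, 127, 71 and 54 bases before the start, the middle one on the minus strand, and 32.0% of windows hold at least 1. It also held GCCATNTT, the YY1 core, 42 bases before the start, which 3.9% of windows hold. The motifs did not overlap each other. The GC box GGGCGG was in neither window and is in 42.6% of all windows. The same held for the TATA box TATAAA (10.7%) and the cyclic AMP response element TGACGTCA (1.6%). PSPC1 had 56.8% G and C with 22 CG pairs and NONO 54.0% with 17, against medians of 58.0% and 11. Matches describe the letters only. No binding was measured.

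Culture totals ranged from 776871 to 1396056 counts. Libraries of the same cDNA differed by less than sampling noise in all 16 pairs and were not used as replicates. Of the 6 HEK293 marker genes looked up, VIM, NEFM, KRT8 and KRT18 had counts in all 8 cultures. LHX1 had 41 counts in all, in 7 of the cultures (0 to 15 a culture), and PAX2 had 5, in 3 of them. PTPRC, ALB and CDH5, which mark blood, liver and endothelial cells, had 0, HBA1 had 1 and COL1A1 16 (0 to 4 a culture). Mitochondrial genes took 1.46% to 2.86% of counts, with the 2 highest shares in the 30 min cultures.

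Levels below are TMM-scaled CPM (counts per 1e6), which assume that most genes do not change, and differences are log2 fold changes from edgeR's quasi-likelihood test with Benjamini-Hochberg adjustment over 10439 genes. The choice of scaling matters here. The median log2 difference of all tested genes from 0 min was 0.10, 0.19 and 0.35 at 5, 15 and 30 min with TMM and 0.83, 0.96 and 1.22 with total counts. Of the calls against 0 min, 52.5%, 54.7% and 57.4% were higher with TMM and 75.5%, 78.9% and 80.9% with total counts. From 5 to 30 min the share was 47.4% with TMM, 71.2% with total counts and 32.9% with RLE size factors.

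From 0 to 5 min, 2 members rose (NEAT1 and PSPC1) and 1 fell (NONO), against 28.7% of all tested genes higher and 26.0% lower. At 15 min the same 2 rose from 0 min and 1 fell, against 29.8% and 24.6%. At 30 min 3 members were higher than at 0 min, SFPQ being the third, and 1 was lower, against 32.1% and 23.8%. So many genes were called in these comparisons that a call by itself does not set a member apart. Calls were rarer between the labelled times. From 5 to 15 min 1.03% of genes rose and 0.517% fell, with 0 members called by edgeR, 1 (PSPC1) at an unadjusted p under 0.05 and 0 called by DESeq2, which gave PSPC1 no adjusted p. From 15 to 30 min 2.26% rose and 2.78% fell, and SFPQ rose. From 5 to 30 min 5.88% rose and 6.52% fell, and NEAT1 and SFPQ rose while PSPC1 fell.

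**Figure D1:**
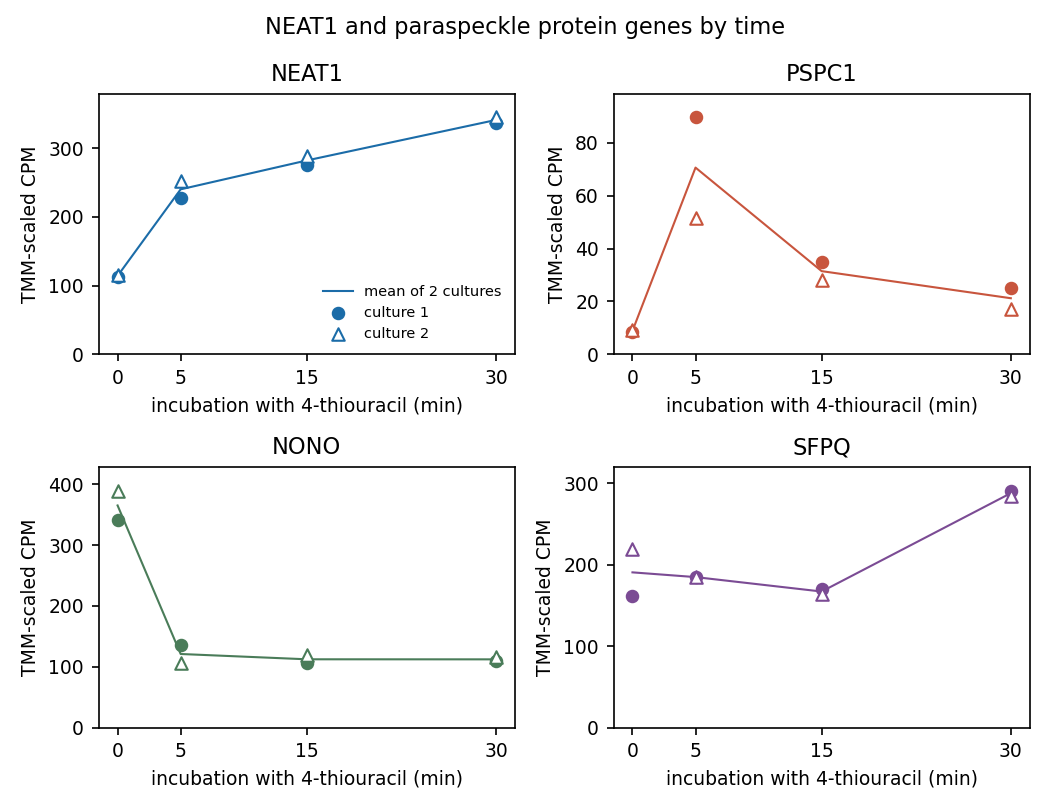
TMM-scaled CPM (vertical, linear, each panel with its own scale) against incubation time in min for the 4 members. Filled circles are culture 1, open triangles culture 2, and lines join the means of 2 cultures; NEAT1 is higher at each later time, PSPC1 is highest at 5 min, NONO is highest at 0 min, and SFPQ is highest at 30 min.

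NEAT1, whose long form is the scaffold, had levels of 112 and 116 CPM in the 2 cultures at 0 min (mean 114 ± 2.43, SD, n = 2). They were 228 and 252 at 5 min (240.0 ± 17.3), 275 and 289 at 15 min (282 ± 9.32), and 337 and 345 at 30 min (341 ± 5.63). Each time lay wholly above the one before it. Here and below, the share of all genes whose cultures separate in this way was not counted. With 2 cultures a time it can happen at a small difference. SFPQ at 5 and 15 min did not overlap either, at a log2 difference of -0.15 (edgeR adjusted p = 0.794). NEAT1 rose 2.11-fold by 5 min, a log2 difference of 1.08 (SE 0.19, adjusted p = 1.47e-05). By 30 min it was 2.99-fold above 0 min (1.58, SE 0.19, adjusted p = 9.56e-09), and at 15 min 2.47-fold (1.31, SE 0.19, adjusted p = 4.99e-07). The later steps were smaller. They came to 0.23 from 5 to 15 min and 0.27 from 15 to 30 min, and neither passed the test (adjusted p = 0.61 and 0.437). Over the whole interval from 5 to 30 min the rise was 0.50 (SE 0.17, adjusted p = 0.0465). That last call was lost when any 1 of the 4 cultures at 5 and 30 min was left out (adjusted p from 0.124 to 0.26) and with RLE size factors (0.40, adjusted p = 0.111) or DESeq2 (0.40, 0.136). The short and long forms are not separated in the counts. As the molecule is given as poly(A) RNA and the short form is the polyadenylated one, the rise is not shown to be of the scaffold.

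PSPC1, the paraspeckle protein that is dispensable for the bodies, had the largest rise of the 4 at 5 min, from few counts. Its cultures had 8.46 and 9.27 CPM at 0 min (8.86 ± 0.571, SD, n = 2), from 7 and 6 counts. They had 89.7 and 51.6 CPM at 5 min (70.6 ± 26.9), from 76 and 73 counts. The 5 min cultures thus differed more from each other than those of any other time, yet both lay above all others. At 15 min the levels were 34.9 and 28.0 CPM (31.5 ± 4.86) and at 30 min 25.2 and 17.2 (21.2 ± 5.66). The times did not overlap, but the step from 15 to 30 min was -0.57 with no call (edgeR adjusted p = 0.467). The rise by 5 min was 7.77-fold, a log2 difference of 2.96 (SE 0.45, adjusted p = 9.76e-07). A ratio of the pooled counts gave 7.47 (exact 95% interval 4.24 to 14.4, counting error only, and too narrow where the 2 libraries of a cDNA repeat the same molecules). At 15 min PSPC1 was 1.82 above 0 min (SE 0.48, adjusted p = 0.00151).

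After 5 min the PSPC1 level came down. From 5 to 30 min it fell by 1.70 on the log2 scale (SE 0.35, adjusted p = 0.000951), 3.25-fold. Only 40 of the 10439 tested genes had a more negative difference. Leaving out each culture gave -2.07 to -1.28, the fall being smallest without the first 5 min culture, the higher of the 2. The step from 5 to 15 min was -1.13 (SE 0.34, adjusted p = 0.078), which passed the test when 1 of 3 cultures was left out (either 0 min culture, 0.0376 and 0.0386, or the second 5 min culture, 0.0385). It was smaller without the first 5 min culture (-0.71, adjusted p = 0.627) or the second 15 min culture (-0.95, 0.637). At 30 min it was still 1.26 above 0 min (SE 0.49, adjusted p = 0.0302), a call lost without either 0 min culture (adjusted p = 0.112 and 0.0617) or the first 30 min culture (0.171). It was lost as well with RLE size factors (1.09, adjusted p = 0.0632), DESeq2 (1.13, 0.13) and 1 library per cDNA (1.06, 0.119). Beside this, cDNA 1 of the second 30 min culture had 6 counts of PSPC1 (9.75 CPM of its total) and cDNA 2 had 22 (30.2).

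NONO, needed for the bodies and also active in splicing and DNA repair, moved the other way. Its levels were 341 and 389 CPM at 0 min (365 ± 34.2, SD, n = 2) and 136 and 107 at 5 min (121 ± 20.5). They were 106 and 119 at 15 min (113 ± 9.17) and 109 and 116 at 30 min (112 ± 4.44). The 0 min cultures lay above all others, and the cultures of 5, 15 and 30 min overlapped. NONO fell by 1.60 on the log2 scale from 0 to 5 min (SE 0.19, adjusted p = 1.12e-08), 3.04-fold, with differences of -1.70 at 15 and 30 min (SE 0.19, adjusted p = 3.08e-09 and 1.74e-09). Later differences were -0.09, 0.00 and -0.09 from 5 to 15, 15 to 30 and 5 to 30 min (SE 0.19 to 0.20, adjusted p = 0.896, 1.00 and 0.824).

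SFPQ, the other protein needed for the bodies, had no called difference between 0, 5 and 15 min with TMM. Its cultures had 162 and 219 CPM at 0 min (191 ± 40.6, SD, n = 2), 185 and 184 at 5 min (185 ± 0.625) and 170.0 and 164 at 15 min (167 ± 4.17). At 30 min they had 291 and 285 (288 ± 4.27), above all cultures of the other times. The differences from 0 min were -0.04 at 5 min and -0.18 at 15 min (adjusted p = 0.891 and 0.437), where total counts turn the sign to 0.70 and 0.60 (adjusted p = 0.00195 and 0.00659). SFPQ rose by 0.78 from 15 to 30 min (SE 0.18, adjusted p = 0.00507), 1.72-fold, and by 0.64 from 5 to 30 min (SE 0.18, adjusted p = 0.0156). Against 0 min the 30 min level was 0.60 higher (SE 0.18, adjusted p = 0.00601), a call lost without the first 0 min culture (0.12) and with DESeq2 (0.47, adjusted p = 0.0754). The rise from 15 to 30 min was lost without the second 15 min culture or either 30 min culture (0.0541 to 0.0817), and that from 5 to 30 min without any 1 culture of the 2 times (0.0872 to 0.132) and with DESeq2 (0.53, adjusted p = 0.0616).

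With total counts in place of TMM, NEAT1 was 1.81, 2.08 and 2.46 above 0 min at 5, 15 and 30 min, and PSPC1 3.68, 2.59 and 2.12. NONO kept its sign at -0.86, -0.92 and -0.81. SFPQ was 1.49 higher at 30 min.

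**Figure D2:**
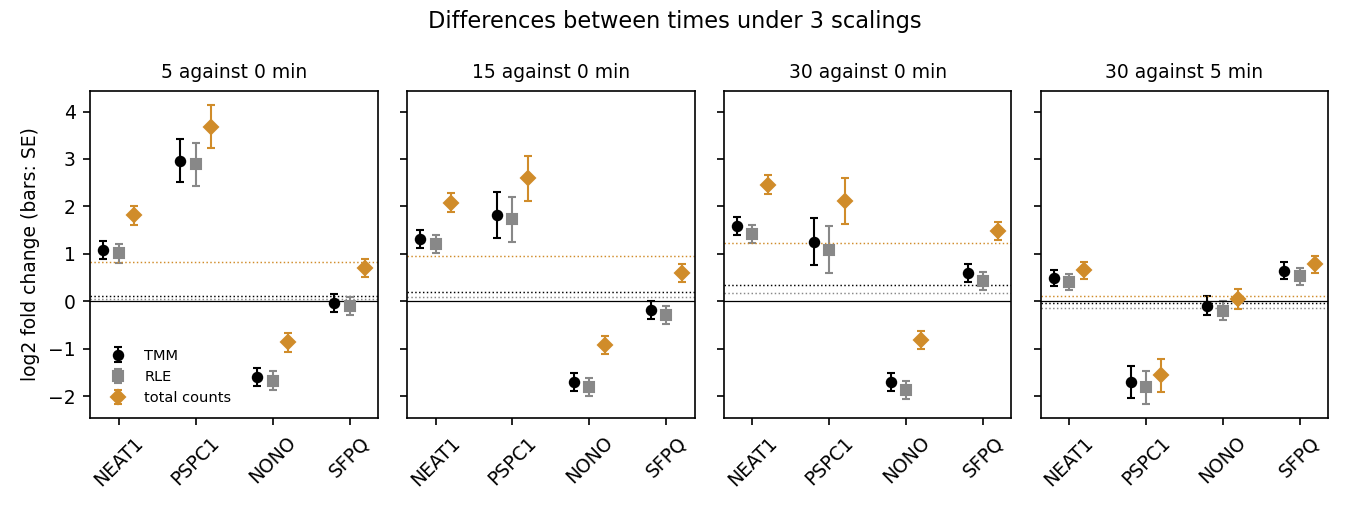
Log2 differences (vertical, bars are SE) of the 4 members in 4 comparisons under TMM (black circles), RLE size factors (grey squares) and total counts (orange diamonds); dotted lines are the medians of all genes in the same colour. NEAT1 and PSPC1 lie above 0 and NONO below it against 0 min under all 3 scalings, whereas SFPQ at 5 and 15 min is below 0 with TMM and above it with total counts.

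Ratios between members within a culture do not depend on the scaling, and only their change over time can be read, since counts of different genes depend on the transcripts. NEAT1 per NONO was 0.33 and 0.298 at 0 min and 1.68 and 2.36 at 5 min, then 2.60 and 2.42 at 15 min and 3.08 and 2.98 at 30 min. The ratio was thus higher in all later cultures than in either 0 min culture. NEAT1 per PSPC1 went from 13.3 and 12.5 at 0 min to 2.54 and 4.89 at 5 min. It was 7.89 and 10.3 at 15 min and 13.4 and 20.0 at 30 min, where 1 culture was level with 0 min and the other above it. PSPC1 per NONO had its highest values at 5 min, 0.661 and 0.483, against 0.0248 and 0.0238 at 0 min. NONO per SFPQ was 2.10 and 1.77 at 0 min and 0.376 and 0.406 at 30 min. This ratio of RNA counts thus lay below both 0 min values in all 6 later cultures. NEAT1 per SFPQ was highest at 15 min (1.62 and 1.76) and 0.694 and 0.528 at 0 min. No test was made of these ratios.

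**Figure D3:**
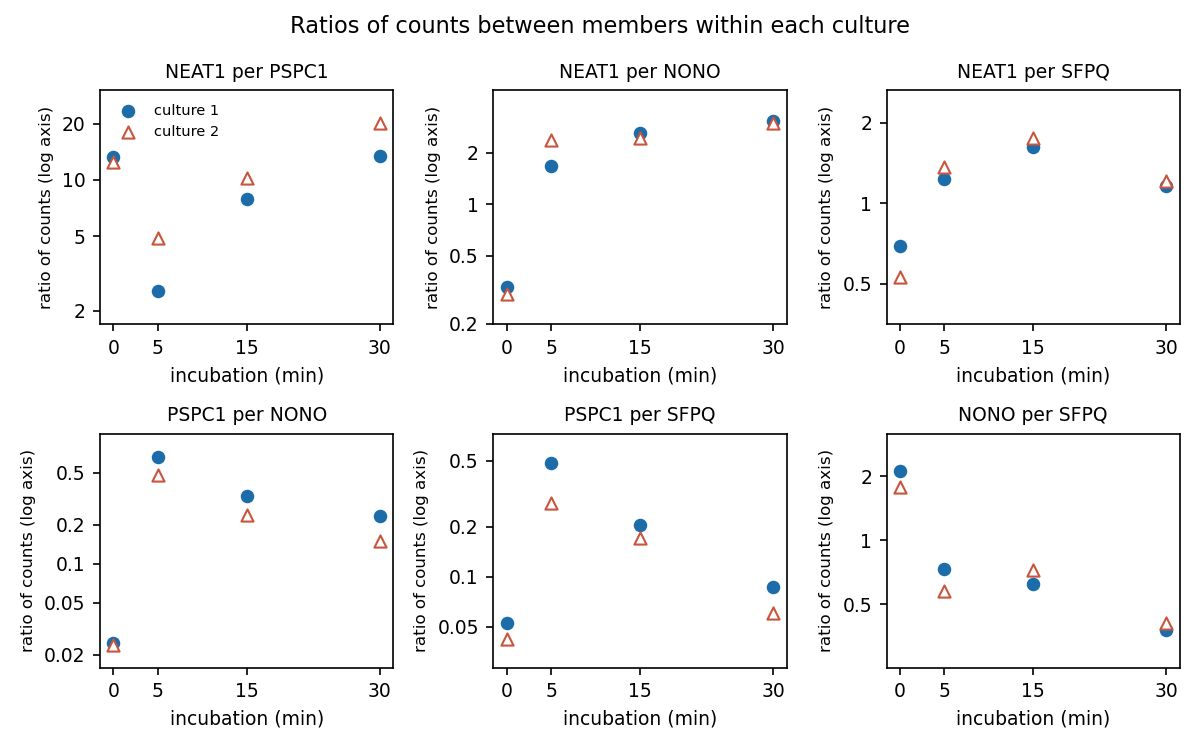
Ratios of counts between pairs of members (vertical, log axis) against incubation time in min, with filled circles for culture 1 and open triangles for culture 2. NEAT1 per NONO is lowest and NONO per SFPQ highest at 0 min, and PSPC1 per NONO and PSPC1 per SFPQ are highest at 5 min.

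The cDNA preparations, set against their own totals, showed how far the members vary within a culture. At 0 min NEAT1 had 55.9 and 62.0 CPM of the total in cDNA 1 of the 2 cultures and 106 and 87.3 in cDNA 2. The lowest of any later cDNA was 226. For NONO the lowest 0 min cDNA had 212 CPM and the highest later one 183. SFPQ ranged from 106 to 152 CPM at 0 min, from 173 to 232 at 5 min, from 163 to 226 at 15 min and from 339 to 354 at 30 min. On this scale its 0 min cDNAs were below all later ones, unlike with TMM. PSPC1 ranged from 3.54 to 8.73 CPM at 0 min and from 55.9 to 106 at 5 min.

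**Figure D4:**
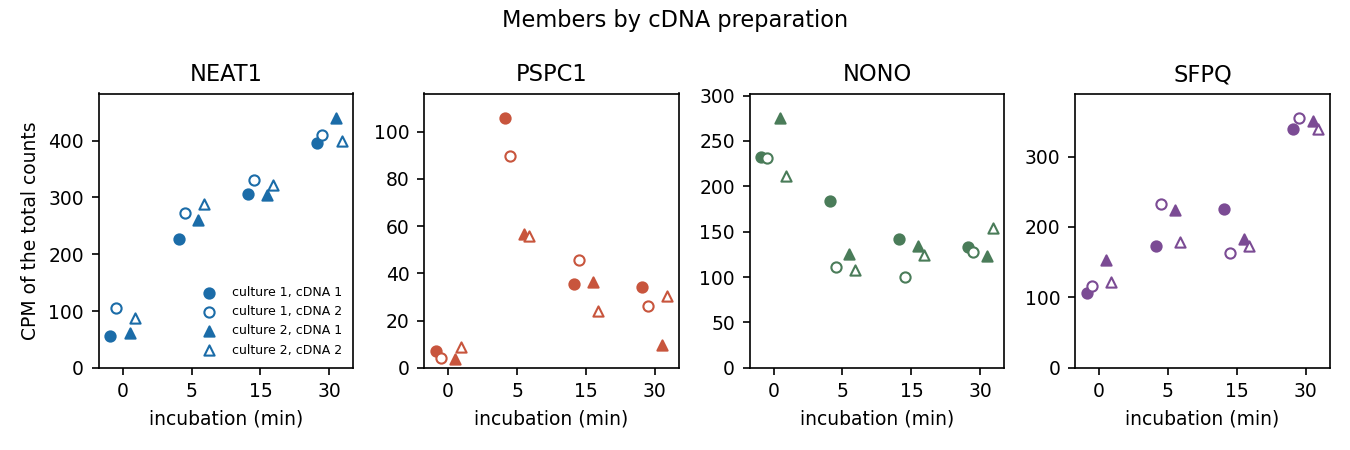
CPM of the total counts (vertical, linear, not TMM-scaled) by incubation time in min for each cDNA preparation, 4 a time; circles are culture 1, triangles culture 2, filled cDNA 1 and open cDNA 2. For NEAT1, PSPC1 and SFPQ every 0 min cDNA lies below every later one, narrowly so for PSPC1 at 30 min (9.75 against 8.73), and for NONO every 0 min cDNA lies above.

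The annotated transcripts of the members differ most in length. In GENCODE release 29 the longest NEAT1 transcript has 22743 bases in 1 exon with 31.7% T. That is at the 92.5th percentile of the 9541 tested genes that could be matched (91.4%). NEAT1 transcripts of 3300 to 3524 bases have 27.7% to 29.1% T, and the shorter ones 20.8% to 37.5%. The counts do not show which of them were measured. The longest protein-coding transcripts of PSPC1, NONO and SFPQ have 2407, 2882 and 3747 bases with 25.4%, 25.7% and 24.7% T, near the median of 25.9%. Percentile and median rest on the longest protein-coding transcript of each gene. Where a gene has none, as for NEAT1, the longest of any type was taken. The PSPC1 gene spans 108268 bases (79.6th percentile), against 22767 for NEAT1 (34.6th), 17977 for NONO and 16771 for SFPQ. RefSeq also lists pseudogene copies of PSPC1, NONO and SFPQ, and how shared reads were counted is not stated, so the values of these genes carry that uncertainty.

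Genes whose profiles over the 8 cultures were closest to a member were found among entries with a mean of at least 30 CPM, by the root mean square difference of centred log2 values. The 8 points of each profile share their libraries and scaling. Closest to NEAT1 were RMND5B (difference 0.102, Pearson r 0.987), EFR3A, TNPO2, TLE3 and ZNF121. RMND5B went from 17.9 ± 3.09 CPM at 0 min to 58.95 ± 1.83 at 30 min (SD, n = 2). PSPC1 was followed less closely, by EGLN1 (difference 0.304, r 0.955), RAD23B, TRIM24, ROCK1 and XPA. EGLN1, an oxygen-sensing hydroxylase, had 31.2 ± 0.377, 195 ± 14.3, 111 ± 8.17 and 90.2 ± 0.657 CPM at 0, 5, 15 and 30 min, the same order of times as PSPC1. NONO had the nearest matches, TMEM261 (difference 0.078, r 0.994), UBE2T, HN1, TSR1 and the ribosomal protein gene RPL10. SFPQ was closest to ODC1 (difference 0.171, r 0.86), the splicing regulator TRA2B, MT-ND4, YTHDF2 and CDV3. TRA2B had 317 ± 4.77 CPM at 0 min and 470 ± 25.8 at 30 min. Between members, r was -0.957 for NEAT1 and NONO and 0.557 for NEAT1 and PSPC1. It was -0.723 for PSPC1 and NONO, 0.399 for NEAT1 and SFPQ, -0.177 for PSPC1 and SFPQ and -0.178 for NONO and SFPQ. How often pairs of other genes reach such values was not counted.

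The genes next to the members moved with them in some cases and against them in others. MALAT1, another nuclear noncoding RNA and the nearest tested gene on one side of NEAT1, had 5047 ± 243, 2165 ± 376, 2395 ± 128 and 1907 ± 166 CPM at 0, 5, 15 and 30 min (SD, n = 2). It fell from 0 min, with log2 differences of -1.22, -1.08 and -1.40 (adjusted p = 1.88e-06, 1.45e-05 and 1.66e-07), opposite to NEAT1, and smaller ones of -0.49, -0.30 and -0.52 under total counts. FRMD8, on the other side of NEAT1, differed by -2.16 at 5 min (adjusted p = 0.0289) with 4 and 3 counts there. Beside PSPC1, ZMYM5 rose by 2.39, 2.28 and 2.59 (adjusted p = 0.00253, 0.00365 and 0.000789) from 6 counts at 0 min, and MPHOSPH8 differed by -0.22, -0.03 and -0.31 with no call. The neighbours of NONO, ZMYM3 and TAF1, had no call. Beside SFPQ, ZMYM4 differed by 0.73 (adjusted p = 0.0366) and ZMYM1 by -0.68 (adjusted p = 0.0483; 0.05 under total counts) at 5 min, and neither was called at 15 or 30 min.

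Of the genes of 5 other proteins on which the bodies depend, 4 were tested, and RBM14, with 8 counts, was not. At 5 min 1 rose and 2 fell, and at 15 and 30 min 2 were called, both lower, against the shares of all genes given above. Their median differences were -0.72, -0.93 and -0.63, against 0.10, 0.19 and 0.35 over all genes. With total counts 1 was higher and 2 lower at 5 and 15 min and 1 was higher and 1 lower at 30 min. Over all 10439 genes total counts gave 4461 higher and 1448 lower, 4901 and 1307, and 5622 and 1331. The list medians were then 0.02, -0.16 and 0.24, against 0.83, 0.96 and 1.22 over all genes. Their sign at 5 and 30 min depends on the scaling, but they lay below the medians of all genes under both. HNRNPK, which steers NEAT1 towards its long form, fell (-1.28, -1.34 and -1.03, the largest adjusted p of the 3 being 4.85e-05), with -0.56, -0.58 and -0.16 under total counts. HNRNPH3 fell too (-1.20, -1.22 and -1.54, or -0.47, -0.44 and -0.65 under total counts). SMARCA4, a chromatin remodeller, rose by 0.80 at 5 min (adjusted p = 0.0149) and had values of 0.48 and 0.30 later with no call with TMM. Under total counts it had 1.53, 1.25 and 1.17. DAZAP1 differed by -0.23, -0.64 and -0.23 with no call with TMM, and by 0.50, 0.13 and 0.64 under total counts.

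Of the genes of 31 other proteins found in paraspeckles, 24 were tested. At 5 min 6 rose and 12 fell, at 15 min 6 and 9, and at 30 min 9 and 7, with medians of -0.37, -0.31 and 0.02 (0.36, 0.47 and 0.89 with total counts). Over all genes 28.7%, 29.8% and 32.1% were higher and 26.0%, 24.6% and 23.8% lower, with medians of 0.10, 0.19 and 0.35. With total counts the calls were 9 and 6, 10 and 5, and 14 and 3. Over all 10439 genes they were then 4461 and 1448, 4901 and 1307, and 5622 and 1331, with medians of 0.83, 0.96 and 1.22. The most abundant were RBMX, HNRNPF and RBM3. RBMX fell with TMM (-1.01, -1.03 and -0.81), with -0.27, -0.25 and 0.08 under total counts. HNRNPF fell with TMM (-1.58, -1.42 and -0.97) and had -0.84, -0.65 and -0.09 under total counts. The cold-induced RBM3 fell (-3.16, -3.03 and -2.82, or -2.42, -2.25 and -1.93 under total counts). From 5 to 30 min 4 of the 24 were called, all higher, against 5.88% of all genes higher and 6.52% lower. These were HNRNPA1, HNRNPF, TOE1 and ZNF24, named because the count is small, after their values were seen.

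The choice between the NEAT1 forms is made at a polyadenylation site, and all 19 cleavage and polyadenylation factors listed were tested. At 5 min 8 rose and 6 fell, and at 15 and 30 min 6 rose and 6 fell, with medians of 0.34, -0.04 and 0.32 (1.07, 0.73 and 1.20 with total counts). Over all genes 28.7%, 29.8% and 32.1% were higher and 26.0%, 24.6% and 23.8% lower. With total counts the calls were 10 higher and 3 lower, 10 and 2, and 14 and 2. Over all 10439 genes they were then 4461 and 1448, 4901 and 1307, and 5622 and 1331, with medians of 0.83, 0.96 and 1.22. The even split of the factors at 15 and 30 min thus holds only with TMM and, at 5 and 6, with RLE. The subunits of cleavage factor Im, which favours the short form, did not move together. NUDT21 fell (-1.88, -1.63 and -1.63, or -1.14, -0.86 and -0.75 under total counts), and CPSF7 rose by 1.15, 1.44 and 1.26. CPSF7 is also among the proteins found in paraspeckles above. CPSF6 rose by 0.57 at 5 min and had values of 0.43 and 0.32 later with no call with TMM. Under total counts it had 1.31, 1.20 and 1.20. Of the other most abundant factors, CSTF3 differed by -0.37 and -0.24 with no call and by -0.45 at 30 min (adjusted p = 0.0379), and by 0.36, 0.53 and 0.42 under total counts.

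Of 12 symbols listed as regulators of NEAT1 transcription or decay, which name 11 genes, 10 were tested. At 5 min 5 rose and 3 fell, against 28.7% and 26.0% of all genes. At 15 and 30 min 4 rose and 2 fell, against 29.8% and 24.6%, and 32.1% and 23.8%. The medians were 0.27, 0.41 and 0.33 (1.01, 1.19 and 1.21 with total counts, where the calls, 5, 6 and 6, were all higher). Over all 10439 genes total counts gave medians of 0.83, 0.96 and 1.22. The calls were then 4461 higher and 1448 lower, 4901 and 1307, and 5622 and 1331. HNRNPD, which promotes decay of many RNAs, rose by 1.12, 0.58 and 0.66. ATF2, a transcription factor, rose by 1.85, 1.51 and 1.24 and fell by 0.61 from 5 to 30 min. SKIV2L2, the helicase of nuclear exosome complexes, rose by 0.82 at 5 min and had values of 0.47 and 0.04 at 15 and 30 min with no call with TMM. Under total counts its differences from 0 min were 1.55, 1.24 and 0.91. From 5 to 30 min it fell by 0.78 with TMM.

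**Figure D5:**
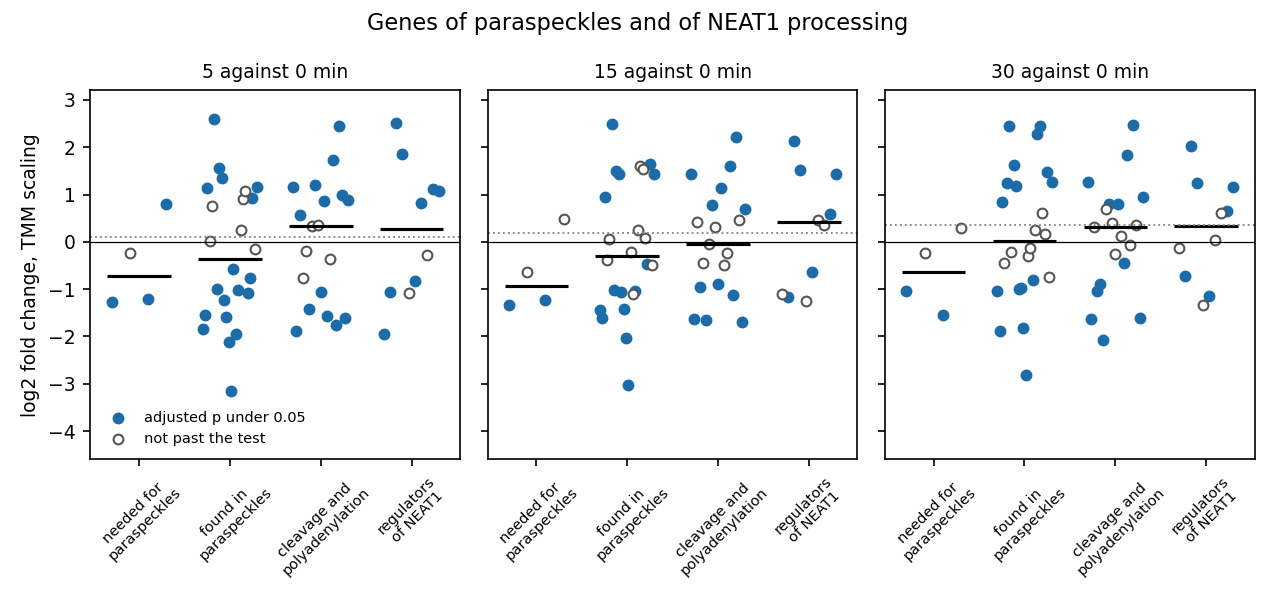
Log2 differences from 0 min with TMM scaling (vertical) of the tested genes of 4 lists at 5, 15 and 30 min. Filled points passed adjusted p under 0.05, open points did not, black bars are list medians, and the dotted line is the median of all tested genes; in all lists some genes lie above 0 and some below at each time.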

How the data were processed

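RNA of 32 HEK293 libraries was measured by sequencing. The authors deposited whole-number counts per gene. The submitters' processing notes name STAR and the build hg19; the STAR version, the strand setting and any use of molecular identifiers were not given in the sources used here. Per the labels the replicates are biological, and libraries were summed per culture (8 samples, 776871 to 1396056 counts). p-values use the spread between 2 cultures a time, pooled over the 4 times. edgeR draws this spread towards the trend over all tested genes, so a p-value does not rest on a member's own replicate spread alone. The test therefore uses more degrees of freedom than the 4 residual ones of a gene.

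Differences were tested in 1 fit with edgeR 4.0.16 in R 4.3.3 (quasi-likelihood F test, two-sided, TMM, filterByExpr, 4 residual degrees of freedom), adjusted over 10439 genes at 0.05. The code was tested on simulated data. Alternatives were RLE and total-count scaling, other count filters, DESeq2 1.42.0, a replicate block, 1 library per cDNA, and leaving out each culture. An exact permutation test of 2 against 2 cannot reach 0.05 and was not used. Members and lists were chosen with earlier results of these data known. Named were all members, the 3 most abundant tested genes of each list, the essential paraspeckle proteins (1 listed gene is not reported here and was left out of the list's counts) and cleavage factor Im subunit, the 5 closest profiles (prior count 2) and the nearest tested neighbours in RefSeq's GRCh38.p14 gene order. Coordinates of hg19 genes are not given.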

Additional observations from a re-analysis of the deposited data

Results flagged for a closer look

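SFPQ at 0 min had 1 library above the other 7 that was marked by the gap to its nearest neighbour. This library had 173.9 CPM of the total and the next 135.4, against a median of 116 and a lowest value of 101 over 8 libraries. It belongs to the group in which the 2 cultures also had the widest SFPQ spread. Of 16 groups of 8 libraries looked at, chance alone would mark about 1 in 20 if libraries were independent, which those of 1 culture are not.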

How the results depend on the processing

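Of 166 values with an adjusted p under other settings, leaving out a culture aside, 150 kept their sign and their side of the threshold. DESeq2 gave 2 more, PSPC1 from 5 to 15 and from 15 to 30 min, no adjusted p. With total counts SFPQ was 0.70 at 5 min and 0.60 at 15 min against 0 min, and NONO 0.10 from 15 to 30 and 0.05 from 5 to 30 min. With no filter on low counts SFPQ was 0.01 at 5 min and NONO 0.03 from 15 to 30 min, where a stricter filter gave 0.04. Calls were lost for PSPC1 at 30 against 0 min with RLE (1.09), DESeq2 (1.13) and 1 library per cDNA (1.06). They were lost for SFPQ with DESeq2 at 30 against 0 min (0.47) and 30 against 5 min (0.53), and for NEAT1 at 30 against 5 min with RLE (0.40) and DESeq2 (0.40). With 1 library per cDNA PSPC1 passed from 5 to 15 min (-1.17). The cause was not tested. Leaving out each culture kept 168 of 192 values. The ranges were, for SFPQ, -0.22 to 0.21 at 5 min, -0.36 to 0.07 at 15 min and 0.42 to 0.85 at 30 min against 0 min, 0.77 to 0.80 from 15 to 30 min and 0.62 to 0.70 from 5 to 30 min. They were 0.98 to 1.53 for PSPC1 at 30 against 0 min and -1.49 to -0.71 from 5 to 15 min, and 0.43 to 0.59 for NEAT1 from 5 to 30 min. For NONO they were -0.26 to 0.07 from 5 to 15 min, -0.09 to 0.11 from 15 to 30 min and -0.26 to 0.07 from 5 to 30 min. The replicate numbers were not shown to pair the cultures, since the correlations of deviations between times were -0.032 to 0.081. With the replicate block NONO was 0 from 15 to 30 min, and NEAT1 0.51 from 5 to 30 min (edgeR adjusted p = 0.049), and no call of a member changed. Over all genes, total counts gave 4461 higher and 1448 lower at 5 min, against 2998 and 2712, 4901 and 1307 at 15 min, against 3110 and 2573, and 5622 and 1331 at 30 min, against 3352 and 2485. From 15 to 30 min DESeq2 called 99 higher and 364 lower, against 236 and 290. Depth limits PSPC1 most, with 13 counts at 0 min.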
